A study of Mus musculus with 6 samples.

Results

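DNA replication is the copying of the genome in S phase, and the set described here holds 41 named mouse genes that license origins, unwind and copy DNA, supply nucleotides, guard the fork or start S phase. They were taken by gene symbol, and each gene was read from the probe set with 1 gene symbol and the highest mean intensity over the 6 arrays. That mean takes no difference between groups, but most of the arrays are of kidneys whose vessels were clamped. It can therefore favour probe sets that are high in clamped kidneys. By that rule 40 of the 41 genes had a value, out of 18193 genes on the array, and Chaf1a, a subunit of a histone chaperone, is not analysed here.

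Kidneys of male FVB/N mice, an inbred strain, were studied after ischemia-reperfusion injury, in which the blood supply is stopped and then restored. The labels give the mice as 6 to 8 weeks old and 22 to 26 g in weight. Under pentobarbital anaesthesia a clamp was placed on the vessels of a single kidney for 0, 45 or 60 min, and that kidney was taken 3 days or 1 day after the clamp came off. Each of the 6 combinations of clamp time and day is 1 Affymetrix array, so no group has a replicate, and whether an array holds RNA of 1 mouse or of several is not stated. The series title names a blockade of TNFα, a cytokine, but none of the 6 kidneys is labelled with such a treatment. No transgene or induced mutation is named for any group, and the 0 min kidneys are the reference for the clamped ones.

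In a cell preparing to divide, the Mcm2 to Mcm7 ring is loaded on origins by Cdc6 and Cdt1, and joins Cdc45 and the GINS complex to form the replicative helicase. Polymerases then copy both strands, with Pcna as the ring that holds them on DNA. Most adult kidney tubule cells rest outside the cell cycle, surviving tubule cells are known to re-enter it after injury, and many genes of S phase are known targets of E2F transcription factors.

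After a 60 min clamp the set was high on both days, while after a 45 min clamp it was high on day 1 and near the unclamped level on day 3. The intensities of the 40 genes summed to 12444, 13244 and 36434 at 0, 45 and 60 min on day 3, and to 10704, 24875 and 37663 on day 1. At 60 min, 31 of 40 genes were at least 2-fold above the 0 min kidney on day 3, against 7.92% of all genes, and 35 of 40 on day 1, against 4.94% of all genes. At 45 min, 1 of 40 genes was at least 2-fold above the 0 min kidney on day 3, against 3.73% of all genes, and 26 of 40 on day 1, against 4.08%. No gene of the set was at least 2-fold lower in any of these 4 comparisons. Of all genes, 3.69% and 4.22% were so at 60 min on day 3 and day 1, and 2.54% and 3.85% at 45 min. Differences and folds called here are on the scale of log2(intensity + 16), which understates the change of dim genes, and a plain ratio of intensities is named as such. On that scale the median over the set was 1.43 on day 3 and 1.95 on day 1 for 60 min minus 0 min. The median for 45 min minus 0 min was 0.06 on day 3, where median centring of the arrays turned it to -0.04, and 1.41 on day 1. The medians over all 18193 genes in these comparisons lay between -0.02 and 0.03. Comparisons with the same 0 min array share that array, so their differences are not independent. In whole kidney RNA, fewer cells of a type and less RNA per cell cannot be told apart, and the same holds for more.

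**Figure D1:**
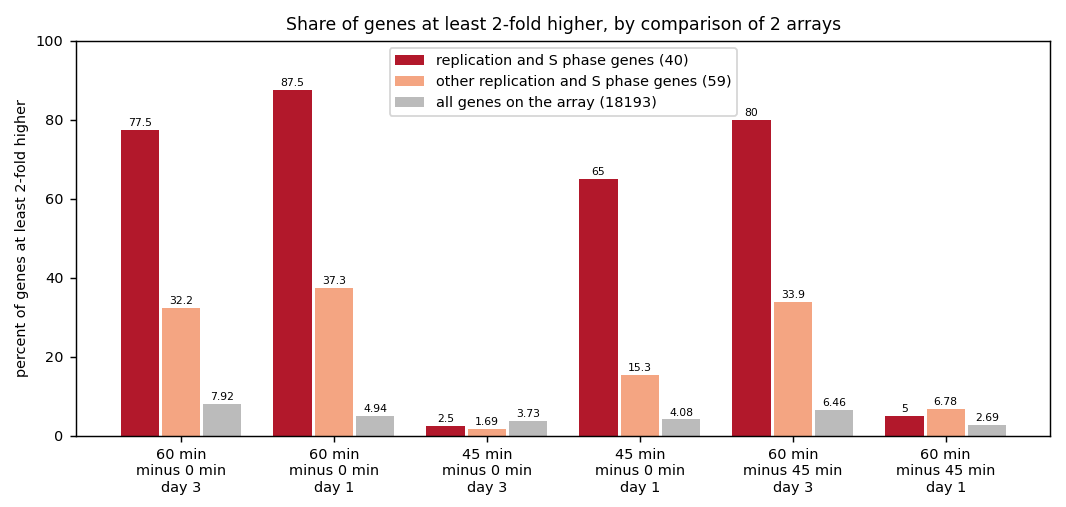
Percent of genes at least 2-fold higher on the log2(intensity + 16) scale (y axis), in each of 6 comparisons between 2 arrays (x axis), for the 40 replication and S phase genes, 59 other genes of replication and S phase, and all 18193 genes. The set's bars stand at 77.5% and 87.5% for 60 min minus 0 min on day 3 and day 1, and at 2.5% and 65% for 45 min minus 0 min on the same days.

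The kidney with the longer clamp stood above the one with the shorter clamp mainly on day 3. For 60 min minus 45 min the median over the set was 1.47 on day 3 and 0.50 on day 1. At least a 2-fold excess at 60 min was seen in 32 of 40 genes on day 3, against 6.46% of all genes, and in 2 of 40 on day 1, against 2.69%. Those 2 were Mcm6, at 1.08, and Dscc1, at 1.09, named after their values were seen. The highest of the 6 arrays was a 60 min one in 39 of 40 genes, against 38.8% of all genes. By any amount, 60 min was above 45 min in 39 of 40 genes on each day, against 54.2% of all genes on day 3 and 50.9% on day 1. Both 60 min arrays were above the other 4 arrays in 35 of 40 genes, against 14.4% of all genes. Adding the 45 min day 1 array to both, all 3 were above the other 3 arrays in 36 of 40 genes, against 13% of all genes. All 4 clamped arrays were above both 0 min arrays in 20 of 40 genes, against 9.37% of all genes.

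A fit of clamp time and day to all 6 arrays left a residual of only 2 degrees of freedom, so 6 arrays set how precise it can be. With 1 array per combination, that residual is the change of the clamp differences between days, mixed with any technical spread. The p-values and standard errors of the fit rest on this residual and hold no spread between replicates. For clamped minus 0 min, the mean of 45 and 60 min against 0 min over both days, the 40 differences ran from 0.03 to 2.54 with a median of 1.31. None of the 40 had an adjusted p under 0.05 by limma with Benjamini-Hochberg adjustment, and neither did any of the 18193 genes (0%). At an unadjusted limma p under 0.05, 30 of the 40 were higher in clamped kidneys, against 6.59% of all genes, and 0 were lower, against 4.33%. The lowest adjusted p over the set by limma was 0.368, shared by 6 genes (Brca1, Ccne2, Chaf1b, Chek1, Dscc1 and E2f1) and as low as for any gene on the array, and the highest was 0.969. With limma's intensity trend and robust variances, 42 genes had an adjusted p under 0.05, and Dscc1 was the 1 gene of the set among them, at 0.0489. For 60 min minus 45 min over both days limma also called 0 genes at an adjusted p under 0.05 (0%), with 16 of the 40 at an unadjusted p under 0.05, all of them higher at 60 min, where 5.1% of all genes were higher and 4.02% lower. The day contrasts came from a second fit, whose residual is the difference between 45 and 60 min on each day. For day 3 minus day 1 in clamped kidneys limma called 0 genes (0%). At an unadjusted p under 0.05 it held 0 of the 40, with 2.78% of all genes higher and 2.24% lower on day 3. For the change of the clamp difference from one day to the other limma called 0 genes (0%), and 1 of the 40, Cdc45, was lower at an unadjusted p under 0.05, against 1.5% of all genes. The size of these fitted differences rested in part on single arrays. Without the 0 min day 1 array the median for clamped minus 0 min was 0.71, and 23 of the 40 differences were lower by more than 1.5 times, among them Pole at 0.70, Fignl1 at 1.12, Uhrf1 at 1.48 and Cdc6 at 0.34. Leaving out 45 min on day 1 gave a median of 0.86, leaving out 0 min on day 3 gave 1.77, and leaving out any other single array gave 1.21 to 1.71. Values below are therefore descriptions of single arrays, and the ± beside a fitted difference is its standard error.

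The 6 arrays had been scaled alike and were close in median intensity. Median intensity lay between 81.4 and 95.3, and 18.4% to 20.6% of probe sets were under an intensity of 16. Of 11 kidney tubule and glomerulus markers, 9 had a value and all 9 were above 16 on every array. For Actb the 3' control probe set minus the 5' one, a log2 difference that grows as RNA breaks down, was 0.77, 1.03 and 0.49 at 0, 45 and 60 min on day 3 and 1.12, 1.10 and 1.08 on day 1. For Gapdh it was -0.37, -0.33 and -0.37 on day 3 and -0.23, -0.22 and -0.20 on day 1. The 60 min day 3 kidney, where the set was high, had the lowest value for Actb, and the part of RNA quality in the results was not tested.

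The promoters are shown because most genes of the set were high on the same arrays, and strings of the E2F type were looked for in them. RefSeq, on build GRCm38.p6, gave a window from 250 bases before to 50 bases after the start of transcription for 33 of the 40 genes. TTGGCGC, its variant TTCGCGC, the form TTGCCGC or the form TTCCCGC, on either strand, was found in 23 of the 33 windows (69.7%). The same strings were in 29 of 48 windows of the other replication and S phase genes (60.4%). They were in 16% of windows of 14452 genes on the array and in 10.9% of all 27025 windows. Of 13 windows of mitosis genes, 2 (15.4%) held one. Both 60 min arrays and the 45 min day 1 array were above the other 3 in 13 of 15 mitosis genes, against 13% of all genes. With 1 more T in front, 12 of the 33 windows (36.4%) held a match, against 3.81% of genes on the array and 2.6% of all windows. Of the 48 windows of other replication and S phase genes, 21 (43.8%) held one. The longer strings contain the shorter ones, so the counts overlap. CCAAT, on either strand, was in 17 of the 33 windows (51.5%), against 42% of genes on the array. TTTGAA, known from promoters of mitosis genes as the CHR element, was in 3 of the 33 (9.09%), against 15.7% of genes on the array and 9 of 13 mitosis genes (69.2%). Median GC content was 57.7% in the set's windows and 58.7% in those of genes on the array. Clamped minus 0 min had a median of 1.36 over the 23 genes with a match of 7 letters and 0.87 over the 10 genes without one. The ranges overlapped, at 0.13 to 2.54 with a match and 0.03 to 1.69 without, and the gap was not tested. Over all 59 other replication and S phase genes measured the median of clamped minus 0 min was 0.42. A match is a description of letters and not a site shown to be bound. The 250 bases before the start follow for 3 genes of different roles with a match, in capitals, and for Pcna without one. Mcm7 lies on the minus strand at chr5:138171884-138172133, with the match beginning 165 bases before the start. Rrm2 lies on the plus strand at chr12:24708004-24708253, with the match 235 bases before the start. Prim1 lies on the plus strand at chr10:128014965-128015214, with the match 15 bases before the start. Pcna lies on the minus strand at chr2:132253181-132253430. Each is given 5′ to 3′ in the direction of the gene.
Mcm7: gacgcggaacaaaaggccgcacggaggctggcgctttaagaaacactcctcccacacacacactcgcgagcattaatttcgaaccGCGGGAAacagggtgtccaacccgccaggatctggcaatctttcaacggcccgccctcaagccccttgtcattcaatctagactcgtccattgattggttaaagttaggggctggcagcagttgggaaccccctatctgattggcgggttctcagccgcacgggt
Rrm2: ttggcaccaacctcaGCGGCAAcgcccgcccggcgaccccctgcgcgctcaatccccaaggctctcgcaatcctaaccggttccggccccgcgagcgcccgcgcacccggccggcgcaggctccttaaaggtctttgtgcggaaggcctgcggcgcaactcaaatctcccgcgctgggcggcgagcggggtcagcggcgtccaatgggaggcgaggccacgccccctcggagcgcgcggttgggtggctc
Prim1: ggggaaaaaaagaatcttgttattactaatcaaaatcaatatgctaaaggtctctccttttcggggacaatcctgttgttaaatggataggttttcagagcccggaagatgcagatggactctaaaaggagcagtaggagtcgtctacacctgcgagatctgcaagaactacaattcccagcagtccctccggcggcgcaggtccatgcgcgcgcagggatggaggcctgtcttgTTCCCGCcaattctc
Pcna: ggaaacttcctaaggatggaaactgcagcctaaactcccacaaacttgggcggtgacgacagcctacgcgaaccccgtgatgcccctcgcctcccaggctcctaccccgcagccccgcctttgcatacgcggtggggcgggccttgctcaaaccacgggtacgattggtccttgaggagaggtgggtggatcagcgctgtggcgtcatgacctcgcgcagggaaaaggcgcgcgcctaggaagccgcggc

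Origin licensing comes first in the cycle, and both of its genes followed the pattern of the set. Cdt1, which brings the Mcm ring to origins, had intensities of 465, 449.8 and 1591 on day 3 (0, 45 and 60 min) and 448, 1446 and 2418 on day 1. Cdc6, the ATPase that loads the ring with it, had intensities of 70.0, 38.8 and 199 on day 3 (0, 45 and 60 min) and 17.9, 109 and 213 on day 1. In both genes the 2 highest arrays were the 60 min ones and the third was 45 min on day 1. The 45 min kidney on day 3 was below the 0 min kidney of that day for Cdc6, at -0.65, and level with it for Cdt1, at -0.05. Fitted differences for clamped minus 0 min were 1.44 ± 0.38 for Cdt1 and 1.33 ± 0.54 for Cdc6.

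Among the 10 genes of the helicase, 8 had both 60 min arrays and the 45 min day 1 array above the other 3. Of all genes, 13% had that order. Mcm6, a subunit of the ring, had intensities of 215, 226 and 1173 on day 3 (0, 45 and 60 min) and 85.9, 799 and 1706 on day 1. For Mcm5, the neighbouring subunit, the values were 334, 267 and 1538 on day 3 (0, 45 and 60 min) and 194, 1049 and 2063 on day 1. Mcm3 gave 209.6, 230.5 and 949 on day 3 (0, 45 and 60 min) and 149, 686 and 1184 on day 1. In each of these 3 genes the 45 min kidney on day 3 was close to the 0 min kidney, at log2 differences of 0.07, -0.31 and 0.13. As plain ratios of intensities, 60 min over 0 min was 5.45 on day 3 and 19.9 on day 1 for Mcm6. For Mcm5 the same ratios were 4.61 and 10.6, and for Mcm3 4.53 and 7.95. The larger ratio on day 1 went with a lower 0 min kidney on day 1 in all 3, and with a higher 60 min kidney on day 1. The fitted difference was 2.38 ± 0.62 for Mcm6, 1.87 ± 0.56 for Mcm5 and 1.79 ± 0.43 for Mcm3.

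GINS and the remaining ring subunits were high on the same arrays with smaller differences. Gins2, a subunit of the 4-part GINS complex that joins the ring, had intensities of 135, 167 and 578 on day 3 (0, 45 and 60 min) and 118, 421 and 476 on day 1. Its 2 highest arrays were the 60 min ones, with 45 min on day 1 close below. Gins1, of the same complex, had a clamped minus 0 min difference of 1.12 ± 0.38. Mcm4 and Mcm7, 2 more subunits of the ring, had 1.43 ± 0.41 and 1.00 ± 0.21. Cdc45, which completes the helicase, had intensities of 95.6, 61.9 and 137 on day 3 (0, 45 and 60 min) and 10.0, 129 and 164 on day 1. Its 0 min day 1 array was the only one under 16, and the clamped minus 0 min difference of 1.30 ± 0.66 was -0.031 without that array. Its other probe set, with 1 gene symbol as well, gave 0.10.

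Mcm2 and Mcm10 departed from the rest of the helicase. Mcm2, a ring subunit, had intensities of 494, 643 and 675 on day 3 (0, 45 and 60 min) and 702, 642 and 1032 on day 1 on the chosen probe set. Only the 60 min day 1 array stood clearly above the others there, and clamped minus 0 min was 0.31 ± 0.19. The other Mcm2 probe set gave 246, 169 and 787 at 0, 45 and 60 min on day 3, and 233, 507 and 1158 on day 1, with clamped minus 0 min at 1.11. On that second probe set the 3 highest arrays were those of Mcm3, Mcm5 and Mcm6, so the probe sets of Mcm2 disagreed. Mcm10, which helps to start the helicase, had intensities of 243, 336 and 271 on day 3 (0, 45 and 60 min) and 216, 277 and 349.6 on day 1. On day 3 its highest array was 45 min, and it was the 1 gene of the set with 45 min above 60 min on that day.

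**Figure D2:**
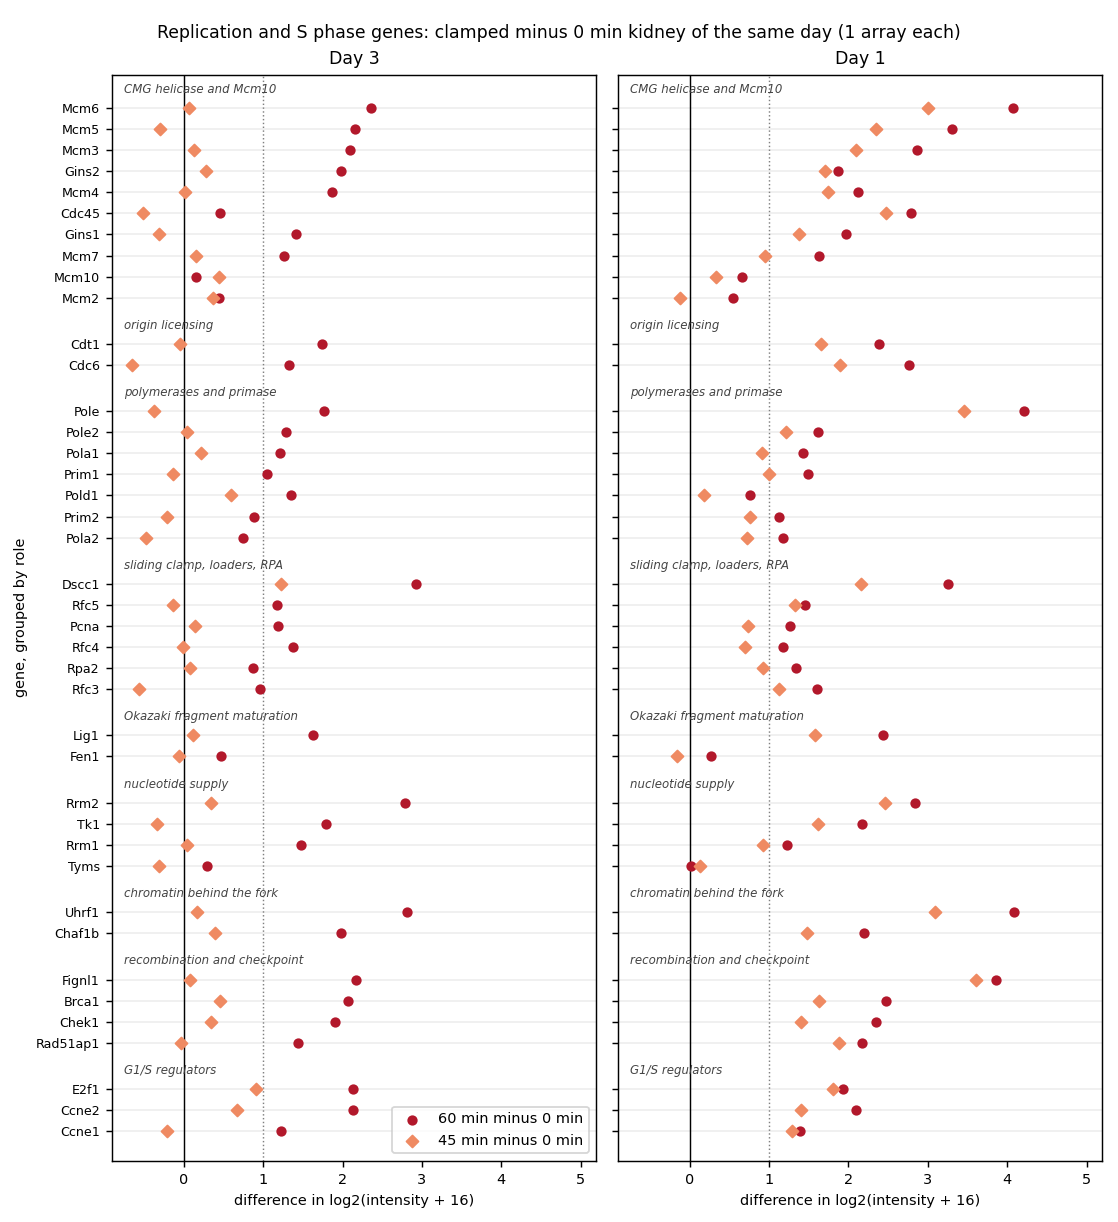
Difference in log2(intensity + 16) between a clamped kidney and the 0 min kidney of the same day (x axis, 1 array each), for the 40 genes grouped by role (y axis), with day 3 in the left panel and day 1 in the right. Circles are 60 min and diamonds 45 min, the solid line is 0 and the dotted line is a 2-fold difference. On day 3 the diamonds lie around 0 and the circles have a median of 1.43, and on day 1 the medians are 1.41 for diamonds and 1.95 for circles.

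All 7 genes of polymerases and primase were higher at 60 min than at 0 min on both days, by 0.74 to 1.76 on day 3 and by 0.75 to 4.22 on day 1. Of all 18193 genes, 9615 were higher on day 3 and 8993 on day 1. Pole, the catalytic subunit of the leading-strand polymerase epsilon, had intensities of 57.4, 40.8 and 234 on day 3 (0, 45 and 60 min) and 5.25, 218 and 379 on day 1. Its 0 min day 1 array was under 16, and the 45 min day 3 array was below the 0 min one of that day. Pole2, the second subunit of polymerase epsilon, had 204, 209.9 and 522 on day 3 (0, 45 and 60 min) and 169, 413 and 550.2 on day 1. Pola1, the catalytic subunit of the polymerase that extends primers, had 210.2, 247 and 508 on day 3 (0, 45 and 60 min) and 215, 419.5 and 605 on day 1. Prim1, the primase subunit that makes those primers, had 437, 397 and 923 on day 3 (0, 45 and 60 min) and 445, 903 and 1279 on day 1. In Pole2, Pola1 and Prim1 the 3 highest arrays were 60 min on both days and 45 min on day 1, and the 45 min day 3 array was within 0.22 of the 0 min one. For Pole, clamped minus 0 min was 2.27 ± 0.81, and 0.70 without the 0 min day 1 array, below Pold1 at 0.97 and Pola1 at 0.71. Pold1, the catalytic subunit of polymerase delta, had 0.72 ± 0.19, while Prim2, the large primase subunit, had 0.63 ± 0.25 and Pola2, the second subunit of polymerase alpha, 0.54 ± 0.28. Unlike most of the set, Pold1 on its chosen probe set had a larger 60 min difference on day 3, at 1.36, than on day 1, at 0.75. Its other probe set, almost as bright, gave 132, 138 and 218 on day 3 (0, 45 and 60 min) and 111, 218 and 337 on day 1. There the 60 min difference was larger on day 1, so the probe sets of Pold1 disagreed.

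The sliding clamp and the proteins that load it were all higher at 60 min. Dscc1, a subunit of an alternative clamp loader that also serves sister chromatid cohesion, had intensities of 10.7, 46.5 and 188 on day 3 (0, 45 and 60 min) and 8.59, 93.7 and 218 on day 1. Both 0 min arrays were under 16, the 1 such case among the chosen probe sets of the set. On the chosen probe sets, Dscc1 was the 1 gene of the set with every clamped array at least 2-fold above the 0 min array of its day. The unchosen probe set of Ccne1 had that order too, and the share of all genes with it is not given here. The fitted difference of Dscc1 was 2.39 ± 0.24. Rfc5, a subunit of the main clamp loader, had 372, 336 and 862 on day 3 (0, 45 and 60 min) and 268, 698 and 762 on day 1. Pcna, the sliding clamp itself, had 3174, 3493 and 7235 on day 3 (0, 45 and 60 min) and 2858, 4768 and 6866 on day 1. Rfc4, another loader subunit, had 256, 254 and 691 on day 3 (0, 45 and 60 min) and 278, 461 and 648 on day 1. In Rfc5, Pcna and Rfc4 the 45 min day 3 array was level with 0 min, at differences of -0.14, 0.14 and -0.01. The plain ratio of 60 min over 0 min for Pcna was 2.28 on day 3 and 2.40 on day 1. Rpa2, a subunit of the protein that coats single-stranded DNA, and Rfc3, a loader subunit, had clamped minus 0 min of 0.80 ± 0.22 and 0.78 ± 0.38.

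**Figure D3:**
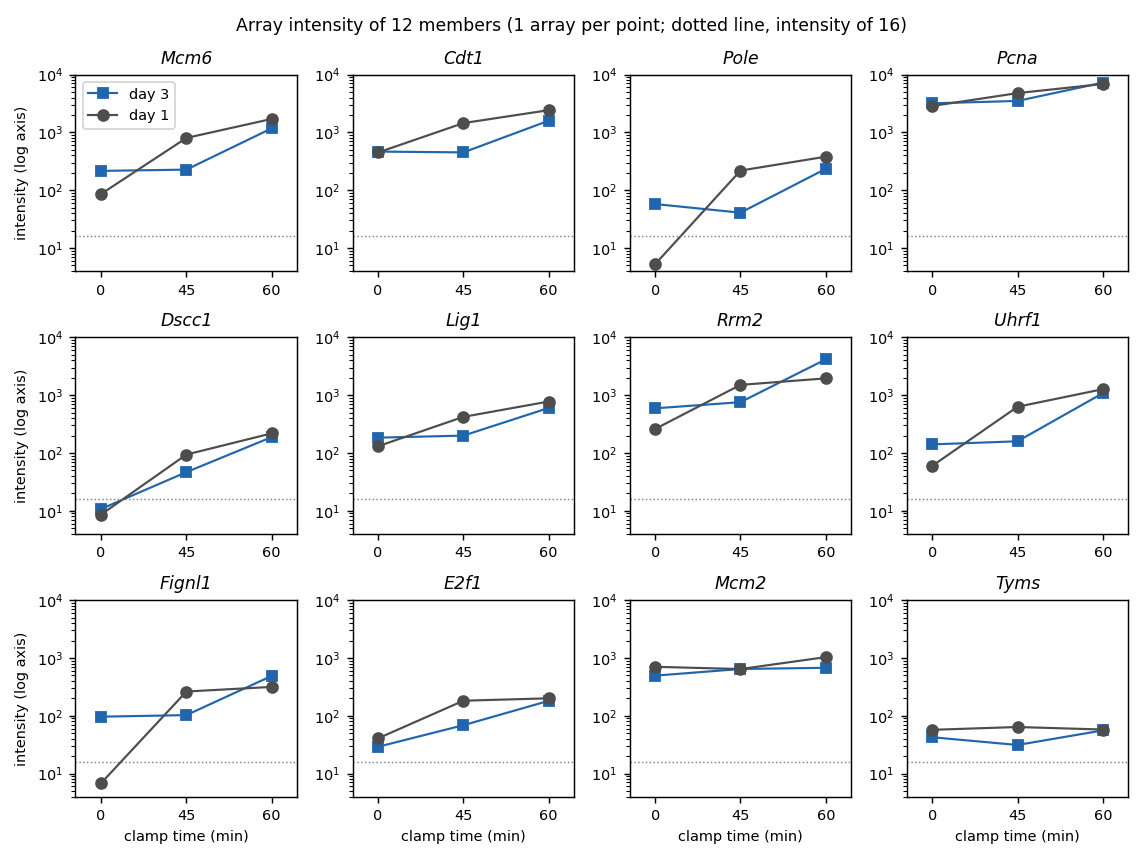
Intensity on a log axis (y axis) against clamp time in min (x axis) for 12 genes, with squares for day 3 and circles for day 1, 1 array per point, and a dotted line at an intensity of 16. In most panels the squares stay flat to 45 min and are high at 60 min, while the circles are already high at 45 min, and the panels of Mcm2 and Tyms do not show this order.

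Joining of the short lagging-strand pieces, the Okazaki fragments, is served by 2 genes. Lig1, the ligase that seals them, had intensities of 184, 199 and 600.2 on day 3 (0, 45 and 60 min) and 131, 421 and 775 on day 1. It followed the pattern of the set, with clamped minus 0 min at 1.43 ± 0.33. Fen1, the nuclease that trims their flaps, had 471, 451 and 660.3 on day 3 (0, 45 and 60 min) and 536, 479 and 648 on day 1 on the chosen probe set. There the fitted difference was 0.13 ± 0.14, and the 2 highest arrays were the 60 min ones. Its other probe set gave a difference of 0.72. The chosen one has a suffix that Affymetrix gives to probe sets with probes shared with other sequences.

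Of the 4 genes of nucleotide supply, 3 followed the pattern of the set and Tyms, which was dim on all its probe sets, did not. Rrm2, the subunit of ribonucleotide reductase whose level is known to follow S phase, had intensities of 591, 755 and 4161 on day 3 (0, 45 and 60 min) and 259.9, 1505 and 1949.7 on day 1. Tk1, the thymidine kinase of dividing cells, had 264, 206 and 952 on day 3 (0, 45 and 60 min) and 163, 532 and 790.2 on day 1. Rrm1, the large subunit of ribonucleotide reductase, had 375, 387 and 1070.3 on day 3 (0, 45 and 60 min) and 384, 740.3 and 917 on day 1. In all 3 the highest array was 60 min on day 3, and Rrm2 was the 1 gene of the set at least 2-fold higher on day 3 than on day 1 at 60 min, by 1.09, against 4.34% of all genes. Tyms, thymidylate synthase, had 42.4, 31.2 and 55.7 on day 3 (0, 45 and 60 min) and 57.0, 63.8 and 57.7 on day 1. Its highest array was 45 min on day 1 and its lowest 45 min on day 3, and its clamped minus 0 min difference of 0.03 ± 0.20 was the lowest of the set. The direction for Tyms turned under quantile normalization and median centring, to differences of -0.0018 and -0.0585. Its 3 other probe sets gave 0.05, -0.13 and -0.41, at mean intensities of only 48.1, 10.6 and 10.4. The chosen probe set of Tyms had a mean of 51.3, the lowest of the set, so its values say little about a change. Clamped minus 0 min was 2.11 ± 0.52 for Rrm2, 1.31 ± 0.45 for Tk1 and 0.92 ± 0.28 for Rrm1.

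Both genes that restore chromatin behind the fork were at least 2-fold above 0 min at 60 min on each day. Of all genes, 7.92% were so on day 3 and 4.94% on day 1. Uhrf1, which brings the maintenance DNA methyltransferase to newly copied DNA, had intensities of 141, 159 and 1081 on day 3 (0, 45 and 60 min) and 59.7, 629 and 1267 on day 1. Chaf1b, a subunit of the chaperone that places histones on new DNA, had 71.7, 99.1 and 331 on day 3 (0, 45 and 60 min) and 73.3, 232 and 393 on day 1. In both the 3 highest arrays were 60 min on day 1, 60 min on day 3 and 45 min on day 1, in that order. The fit for clamped minus 0 min gave 2.54 ± 0.62 for Uhrf1, with an adjusted p by limma of 0.373, and 1.51 ± 0.27 for Chaf1b. The value for Uhrf1 was the highest of the set, a rank it lost without the 0 min day 1 array, where it was 1.48 and Dscc1, Rrm2 and E2f1 were at 2.08, 1.56 and 1.52. The plain ratio of 60 min over 0 min for Uhrf1 was 7.69 on day 3 and 21.2 on day 1.

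The 4 genes of recombination and of the replication checkpoint were at least 2-fold above 0 min at 60 min on both days. Over all genes that share was 7.92% on day 3 and 4.94% on day 1. Fignl1, an ATPase that acts in homologous recombination, had intensities of 96.3, 102 and 488 on day 3 (0, 45 and 60 min) and 6.81, 262 and 315 on day 1. Its 0 min day 1 array was under 16 and its 0 min day 3 array was level with 45 min. Brca1, the tumour suppressor that acts in repair and fork protection, had 54.9, 81.0 and 280.2 on day 3 (0, 45 and 60 min) and 37.5, 150.1 and 280.0 on day 1. Chek1, the kinase that holds the cycle when forks stall, had 91.4, 120.4 and 387 on day 3 (0, 45 and 60 min) and 86.7, 256 and 508 on day 1. Rad51ap1, a factor of homologous recombination, had 96.0, 93.1 and 288 on day 3 (0, 45 and 60 min) and 43.3, 202 and 251 on day 1. In Brca1, Chek1 and Rad51ap1 the 45 min day 1 array was at least 2-fold above 0 min, by 1.63, 1.41 and 1.88, while on day 3 it was apart by 0.45, 0.35 and -0.04. Fitted differences were 2.43 ± 0.74 for Fignl1, 1.65 ± 0.28 for Brca1, 1.50 ± 0.26 for Chek1 and 1.36 ± 0.42 for Rad51ap1.

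Regulators of the step into S phase had the highest median of the roles for 45 min minus 0 min on day 3, at 0.67. E2f1, a transcription factor of S phase genes, had intensities of 29.1, 68.6 and 181 on day 3 (0, 45 and 60 min) and 40.6, 182 and 200.2 on day 1. Ccne2, a cyclin that activates Cdk2 at this step, had 66.9, 116 and 348 on day 3 (0, 45 and 60 min) and 62.5, 192 and 321 on day 1. Ccne1, its close relative, had 63.0, 51.9 and 169 on day 3 (0, 45 and 60 min) and 45.0, 132 and 144 on day 1. For 45 min minus 0 min on day 3 the differences were 0.91 for E2f1 and 0.67 for Ccne2, with all 4 clamped arrays above both 0 min arrays in both genes. Ccne1 was -0.22 in the same comparison on its chosen probe set. Its other, dimmer probe set gave 11.8, 97.9 and 123 on day 3 (0, 45 and 60 min), with 0 min under 16. There the 45 min day 3 array was at least 2-fold above 0 min, so the probe sets of Ccne1 disagreed. Clamped minus 0 min was 1.69 ± 0.28 for E2f1 and 1.58 ± 0.23 for Ccne2. For Ccne1 it was 0.92 ± 0.37 on the chosen probe set and 2.11 on the other.

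Between days, the median of the set was near 0 at 60 min, lower on day 3 at 45 min, and a little higher on day 3 at 0 min. For day 3 minus day 1 at 60 min the median was -0.11, and 33 of 40 genes were within 0.5 of 0, a share near the 75.7% of all genes. At 45 min the median was -0.99, and 18 of 40 genes were at least 2-fold lower on day 3, against 3.34% of all genes. The lowest were Pole, at -2.04, Mcm5, at -1.91, and Uhrf1, at -1.88. At 0 min the median was 0.21, and 7 of 40 genes were at least 2-fold higher on day 3, against 3.05% of all genes. By any amount 29 of 40 were higher on day 3 at 0 min, against 48.1% of all genes. The 0 min day 1 array was the lowest of the 6 in 27 of 40 genes, against 16.2% of all genes. A larger 60 min minus 0 min difference on day 1 than on day 3 was seen in 32 of 40 genes, against 47.8% of all genes, and it takes in that low 0 min array. Fignl1, Cdc45 and Pole were the genes with the largest day 3 excess at 0 min, at 2.30, 2.10 and 1.79, and all 3 were under 16 at 0 min on day 1.

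Genes of mitosis, the division that follows S phase, were placed otherwise over the days. The 60 min day 3 array was the highest in 16 of the 40 replication and S phase genes, against 23.4% of all genes, and in all 15 mitosis genes measured. On the 60 min day 1 array 23 of the 40 were highest, against 15.5% of all genes. For day 3 minus day 1 at 60 min the 40 genes had a median of -0.11 and the mitosis genes one of 1.56. At 0 min the median was 0.21 for the set and 1.51 for the mitosis genes, and at 45 min -0.99 and -0.50. Cdk1, the kinase that drives mitosis, had 139, 245 and 1373 on day 3 (0, 45 and 60 min) and 2.22, 451 and 577 on day 1. Mki67, a marker of cycling cells, had 244, 370.1 and 1609 on day 3 (0, 45 and 60 min) and 29.6, 488 and 535 on day 1, and Birc5, a subunit of the chromosomal passenger complex, had 202, 203 and 1422 on day 3 (0, 45 and 60 min) and 15.8, 355 and 353 on day 1. The gap between the groups of genes was not tested, since each value is the difference of 2 arrays.

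**Figure D4:**
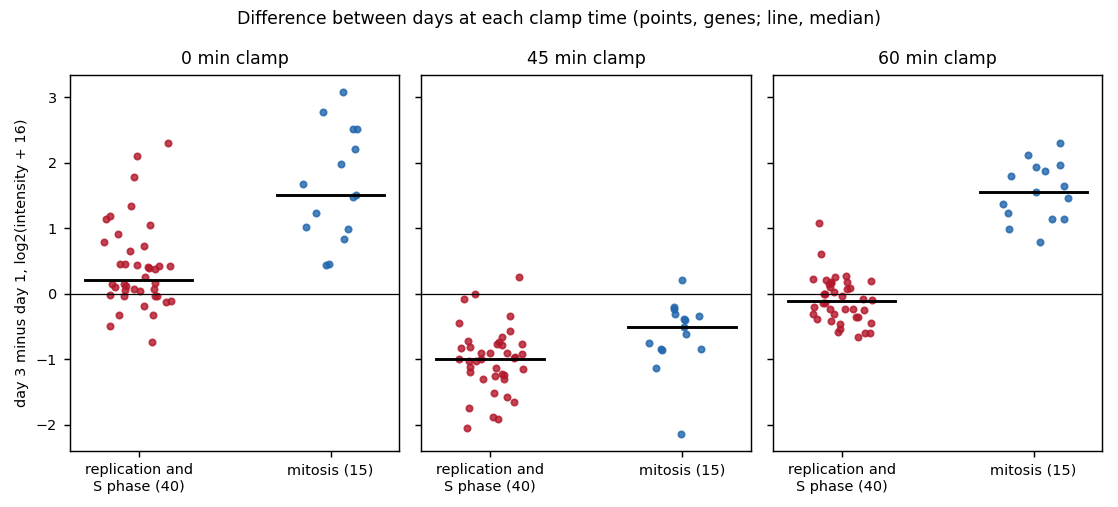
Day 3 minus day 1 in log2(intensity + 16) (y axis) at 0, 45 and 60 min of clamping (panels, left to right), with 1 point per gene for the 40 replication and S phase genes and 15 mitosis genes, and a line at each median. The set's medians are 0.21, -0.99 and -0.11, and those of the mitosis genes are 1.51, -0.50 and 1.56.

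Beyond the 41 names, 62 further genes of replication and S phase were listed and 59 had a value. At least a 2-fold excess over 0 min was seen at 60 min in 19 of 59 on day 3 and 22 of 59 on day 1. The shares of all genes were 7.92% and 4.94%. At 45 min such an excess was seen in 1 of 59 on day 3, against 3.73% of all genes, and 9 of 59 on day 1, against 4.08%. Limma called 0 of the 59 in clamped minus 0 min at an adjusted p under 0.05, and 20 had an unadjusted p under 0.05. Of all genes, 6.59% were higher and 4.33% lower at that unadjusted limma p. The 4 highest fitted differences were those of Hells, a chromatin remodeller, at 2.14 ± 0.53, Rad54l, a recombination motor, at 1.90 ± 0.40, Atad2, a bromodomain ATPase, at 1.85 ± 0.35, and Pclaf, a Pcna-binding factor, at 1.81 ± 0.46. Hells had 119, 135 and 686 on day 3 (0, 45 and 60 min) and 76.3, 552 and 951 on day 1, the same order of arrays as Uhrf1. Rad54l had only 2.88 on the 0 min day 3 array, which is under 16. The 4 lowest were Ticrr, which helps to fire origins, at -0.87 ± 0.43, Mcm9, a helicase of repair, at -0.33 ± 0.15, Rrm2b, the reductase subunit that p53 induces, at -0.32 ± 0.14, and Orc2, of the origin recognition complex, at -0.08 ± 0.15. Ticrr lay between 6.43 and 56.9. Named after their values were seen, Orc3, Orc4 and Orc5 of the same complex were near 0 as well, at -0.06, 0.03 and -0.01, while Orc6 was at 0.66 and Orc1 at 0.03.

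Markers of several other cell types and of injury differed between the same arrays, while the sum of endothelial markers changed little. The 6 endothelial markers summed to 8032, 7737 and 8329 at 0, 45 and 60 min on day 3 and to 8003, 8999 and 8598 on day 1. At 60 min 1 of the 6 was at least 2-fold above 0 min on day 3 and 0 on day 1, against 7.92% and 4.94% of all genes. Summed intensity of 10 measured macrophage and monocyte markers, none under 16, was 8876, 12867 and 32189 at 0, 45 and 60 min on day 3 and 4981, 8420 and 8645 on day 1. All 10 had their highest value on the 60 min day 3 array, against 23.4% of all genes. At 60 min 9 of the 10 were at least 2-fold above 0 min on day 3, against 7.92% of all genes. On day 1 it was 5 of the 10, against 4.94%. Lyz2 alone made 17100.2 of the 60 min day 3 sum. Fibroblast and myofibroblast markers summed to 15455, 24640 and 42559 on day 3 and to 9793, 26283 and 25509 on day 1. Lymphocyte markers, 8 measured, summed to 1058, 1174 and 2091 on day 3 and to 665, 870.1 and 819 on day 1, but most of each sum was Ptprc, which all leukocytes carry. The other 7 summed to 327, 283 and 273 on day 3 and to 259, 213 and 199 on day 1, and 3 of the 8 were above 0 min at 60 min on day 3. Neutrophil markers, 6 measured, summed to 1028, 1560 and 1463 on day 3 and to 961, 1064 and 1396 on day 1. Defining lymphocyte and neutrophil genes were dim, with Cd79a, Cd4 and Cxcr2 under 16 on every array. The injury markers of the proximal tubule, 6 measured, summed to 7909, 19554 and 44126 on day 3 and to 9604, 23631 and 49692 on day 1. At 45 min on day 3, 1 of the 40 replication genes and all 6 injury markers were at least 2-fold above 0 min. Havcr1, the shed kidney injury molecule, was at 1.03. Of all genes, 3.73% were at least 2-fold higher in that comparison. Kidney tubule and glomerulus markers summed to 128736, 128137 and 81015 on day 3 and to 117244, 103179 and 77493 on day 1. The part of these cell types in the results was not tested.

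Other probe sets of the same genes were mostly higher in clamped kidneys too. The 40 genes had 96 probe sets with 1 symbol, and 33 genes had more than 1. Of the 56 probe sets not chosen, 47 were higher in clamped kidneys on average. Among the 25 of them with a mean intensity of at least 100, all 25 were higher and 16 were at least 2-fold higher. That mean includes the clamped arrays, so probe sets high in clamped kidneys pass it more readily, and the count is no separate check. The shares over all probe sets on the array are not given here. Of the chosen probe sets, 12 carry a suffix for probes that may match related sequences.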

How the data were processed

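Total RNA was extracted with Trizol and copied to biotin-labelled cRNA with a 3' IVT kit, per the labels' protocols. The authors deposited 1 linear intensity for each probe set and array. Affymetrix Expression Console is the tool in the submitters' processing notes, and its version and summary algorithm were not given in the sources used here. Each array's mean after trimming 2% at each end was 500.003, a sign that all were scaled to 1 target. Of 45101 probe sets, 64 were controls and 34945 had 1 gene symbol in the platform annotation, which covers 18193 genes. The 932 with several symbols and 9160 without any were left out. Of those with 1 symbol, 34754 matched the reference gene table, and 0 symbols changed.

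Differences were taken on log2(intensity + 16), with no filter. Limma 3.58.1 in R 4.3.3 was fitted to all genes with clamp time and day as terms, and for day contrasts with clamped and 0 min kidneys on each day. Single arrays were compared at 2-fold. The members, lists and rules were chosen with earlier results of these data known. All 41 members were to be described, with 6 array values for up to 4 per role by absolute clamped minus 0 min difference, for members opposite to their role and for the lowest. Mcm2, Mcm10, Cdc45, Fen1, Ccne1, Pold1 and Tyms were given more values after they were seen. The 4 highest and 4 lowest further replication genes, and up to 3 of other lists, were to be named. Quantile normalization, median centring, pseudocounts of 1 and 64, a filter at the 40th percentile, other probe set rules, limma's trend and robust options, clamping as 2 levels, and leaving out each array were tried. The fit was tested on simulated data.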

Additional observations from a re-analysis of the deposited data

How the results depend on the processing

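With 1 array a group, no count below has a replicate check, and intensities near 16 limit what dim genes show. No paired analysis was possible because the labels carry no replicate numbers, but arrays of 1 day share that day, and day was a term in every fit. Leaving out each array in turn left 0 genes of the set with an adjusted limma p under 0.05 in clamped minus 0 min and in 60 min minus 45 min, and trend with robust variances gave 1 in the first. Counts of genes at least 2-fold apart moved as follows. For 60 min minus 45 min on day 1 the count of 2 became 4 with median centring, 1 with a pseudocount of 64, 0 with the mean of all probe sets and 4 without probe sets of shared probes, a setting chosen after seeing the data. For 45 min minus 0 min on day 3 the count of 1 became 2 with a pseudocount of 1, 0 with 64, 0 with the mean of all probe sets and 2 without shared probes. For day 3 minus day 1 the count of 1 higher at 60 min became 0 with the mean of all probe sets and 0 without shared probes. The 18 lower at 45 min became 11 with a pseudocount of 64, and the 7 higher at 0 min became 3 with it and 3 with the mean of all probe sets. Median centring moved the median of all genes to -0.14 for 60 min minus 0 min on day 3, to -0.11 for 45 min minus 0 min on day 3 and to 0.10 for day 3 minus day 1 at 0 min. For single genes, 632 values of clamped minus 0 min under an alternative kept their direction and side of the threshold, 7 turned and 1 passed it. For 60 min minus 45 min 591 kept and 9 turned. Tyms turned in clamped minus 0 min to -0.0018 with quantile normalization, -0.0585 with median centring and -0.12 with the mean of all probe sets, and ranged from -0.11 to 0.18 when each array was left out. Cdc45 ranged from -0.031, without 0 min day 1, to 2.63. In 60 min minus 45 min Mcm10 turned to -0.071 with quantile normalization, -0.0052 with median centring and -0.075 with the mean of all probe sets. When each array was left out, it ranged from -0.27 to 0.29, Cdc45 from -0.27 to 1.56, Tyms from -0.044 to 0.53 and Fignl1 from -0.17 to 2.51. The causes were not tested.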

Other observations

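Regulators of G1 and inhibitors of cyclin-dependent kinases made a further list of 17 genes outside the set. At least a 2-fold excess over 0 min was seen at 60 min in 2 of 17 (11.8%) on each day. At 45 min it was seen in 1 of 17 (5.88%) on each day. The shares of all genes were not far from these, at 7.92% and 4.94% for 60 min on day 3 and day 1. For 45 min they were 3.73% and 4.08%. The 3 with the largest fitted difference in clamped minus 0 min were Cdkn1a, the inhibitor that p53 induces, at 1.04 ± 0.34, Rbl1, a relative of the retinoblastoma protein, at 0.76 ± 0.30, and Cdk6, a kinase of G1, at 0.65 ± 0.16. Cdkn1a had intensities of 322, 934 and 755 on day 3 (0, 45 and 60 min) and 477, 558 and 1161 on day 1. Its highest array on day 3 was 45 min, the array on which most replication genes were level with 0 min. Rbl1 had 409, 355 and 799 on day 3 (0, 45 and 60 min) and 324, 696 and 782 on day 1, with the same 3 highest arrays as most of the set. Limma called 0 of the 17 at an adjusted p under 0.05 in clamped minus 0 min, and 3 had an unadjusted p under 0.05. Of all genes, 6.59% were higher and 4.33% lower at that unadjusted limma p.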
